A study of Mus musculus with 18 samples.

Results

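The clustered protocadherin genes lie on mouse chromosome 18 as a row of 3 arrays, alpha, beta and gamma, and the H3K4me3 peaks over them were described here in pancreatic islets. All peaks that overlapped a window of 1 Mb on chromosome 18 (mm9, 37.05 to 38.05 Mb), which holds the arrays, were taken. This gave 63 of the 21905 peaks called in control islets and 80 of the 21434 peaks called in Men1 knockout islets. The window was set by position and not by a cut-off on the measured values, but it was chosen with earlier results of these data known.

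H3K4me3 was mapped by ChIP-seq, in which an antibody enriches fragments of chromatin that carry a chosen mark and the DNA of these fragments is sequenced. The control group was RIP-Cre, mice in which the rat insulin promoter, active in beta cells, drives Cre recombinase. The other group was labelled Men1 islet-specific knockout, and both were 2 months old, of a background that mixed C57BL/6, FVB/N and 129s6, with pancreatic islets as the tissue and 1 library per genotype. Men1 encodes menin, a subunit of complexes that methylate lysine 4 of histone H3. Which Cre line deleted Men1, and whether animals were pooled, is not given in the sources used here. The other 16 of the 18 samples were not analysed here. Islets hold several cell types, and in such bulk chromatin a larger number of cells with the mark cannot be told apart from more of the mark in each cell. Gene positions of mm9 were not used here, so the tissue was not checked against its marker genes, nor was the deletion of Men1.

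Clustered protocadherins are cell adhesion proteins of the cadherin family, best known in neurons, where each cell uses its own small choice of them and the proteins bind their like on other cells. In the alpha and gamma arrays each variable exon has its own promoter and is spliced to constant exons at the end of the array, while each beta gene is a single exon. The choice of promoter is known to involve the DNA-binding protein CTCF, cohesin loops to distant enhancers, and DNA methylation, and a chosen promoter carries H3K4me3. By symbol, the RefSeq table used here (GRCm38.p6) holds 14 alpha, 22 beta and 22 gamma genes, 57 of the 58 protein-coding, in the order alpha, beta, gamma. Other genes neighbour them in that table. Zmat2, a zinc finger gene, precedes the alpha array, while Slc25a2, a mitochondrial carrier, and Taf7, a subunit of the general transcription factor TFIID, sit between the beta and gamma arrays. After the gamma array come Diaph1, a formin that nucleates actin, and Hdac3, a histone deacetylase. The table describes another genome build than the peaks, so no peak was assigned to a gene or an array, and a peak of the window may belong to one of these neighbours.

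The protocadherin window was crowded with narrow, low-scoring peaks in both genotypes. A score is the deposited value of a peak. It starts at 60.01 in the control list and 60.02 in the knockout list, and 8823 control and 6834 knockout peaks are tied at 3100. The control members had a median score of 165 (95% order-statistic interval 117 to 265, n = 63), against 1988 over the whole control list. The knockout members had a median score of 140 (109 to 206, n = 80), against 1591 over the whole knockout list. A score under 400 was held by 47 control members (74.6%) and by 68 knockout members (85%), where the whole lists had 30.1% and 31.8%. Only 5 members of each list reached the median score of their list. Scores were ranked within a list, since depth is unknown and a score need not mean the same in both. Scores of both lists printed side by side, and cut-offs shared by both, carry this limit.

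**Figure D1:**
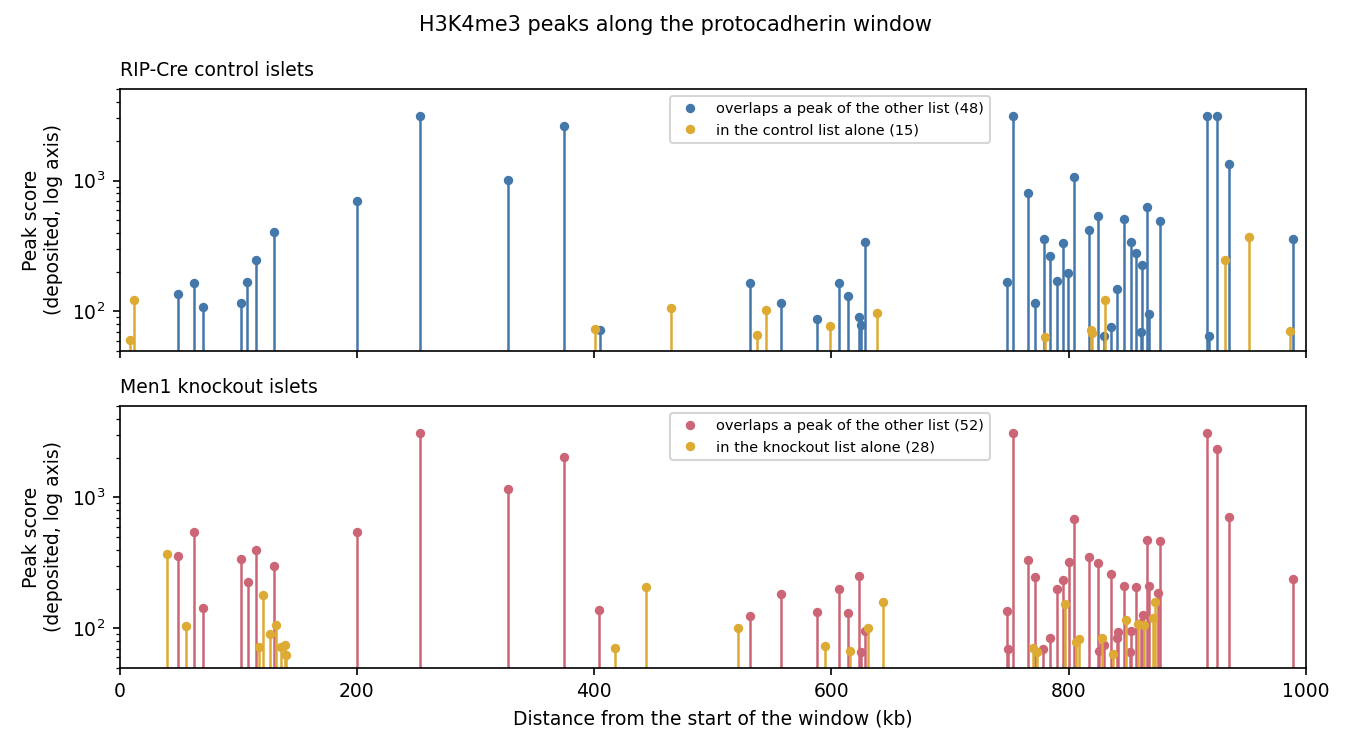
Deposited score (log axis) of every H3K4me3 peak against its distance in kb from the start of the window, for RIP-Cre control islets (top, 63 peaks) and Men1 knockout islets (bottom, 80 peaks), with peaks found in that list alone in yellow. The tallest peaks stand at the same places in both lists, and no yellow peak scores above 371.

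Widths gave the same picture of many small peaks. Control members were 487 to 2778 bp wide with a median of 1080 bp (874 to 1264), and the median of the whole control list was 1773 bp. Knockout members were 461 to 2636 bp wide with a median of 943 bp (845 to 1035), and the median of the whole knockout list was 1632 bp. On chromosome 18 outside the window the median was 1674 bp for control peaks and 1678.5 bp for knockout peaks, close to those of the whole lists. Neighbouring members lay close together. The median gap from the end of a peak to the start of the next was 5.05 kb in control islets (3.71 to 7.28, 62 gaps) and 3.20 kb in knockout islets (2.32 to 5.53, 79 gaps), while over the whole lists it was 38.3 and 40.4 kb. Gaps under 5 kb made up 48.4% of the control and 58.2% of the knockout gaps in the window, and 11.9% and 12.8% of those in the whole lists.

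When all chromosomes were divided into windows of 1 Mb at the same phase, 2303 held at least 1 peak. The protocadherin window had the highest number of knockout peaks of all of them, 80, and the next had 72. By control peaks it came 4th with 63, and the highest had 74. The median window held 7 peaks of either list. In covered length it stood lower, 44th for control and 17th for knockout peaks. Among the 87 windows with 60 or more peaks over both lists its mean peak width, 1106 bp, was the smallest, and the next was 1264 bp. These ranks describe this pair of libraries, at the only phase of windows run, and carry no test.

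The knockout list held more peaks in the protocadherin window than the control list. It had 17 more peaks in the window, 127.0% of the control number, whereas the whole knockout list had 97.8% of the control number. It covered 83436 bp against 74786 bp, or 111.6% of the control length, whereas over the whole lists it covered 90.1%. The difference of 17 peaks was the largest in the knockout direction of the 2303 windows, where the next was 15. Such differences can rise with the number of peaks. A window on chromosome 10 (81050000 to 82049999) with a difference of 15 held 34 control and 49 knockout peaks. Relative to its control number, that excess was larger than the one here. The mean peak width of that window was 1264 bp, and 15 of its knockout peaks overlapped no control peak. Of the 87 windows with 60 or more peaks, 28 had more knockout than control peaks and 52 had fewer. The excess in the protocadherin window has no replicate check, since there was 1 library per genotype, and depth and genotype cannot be told apart. Merging peaks of a list within 1 kb of each other left 55 control and 58 knockout members, a difference of 3. With the joined gaps included, the merged members covered 77630 bp in the control list and 93641 bp in the knockout list.

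**Figure D2:**
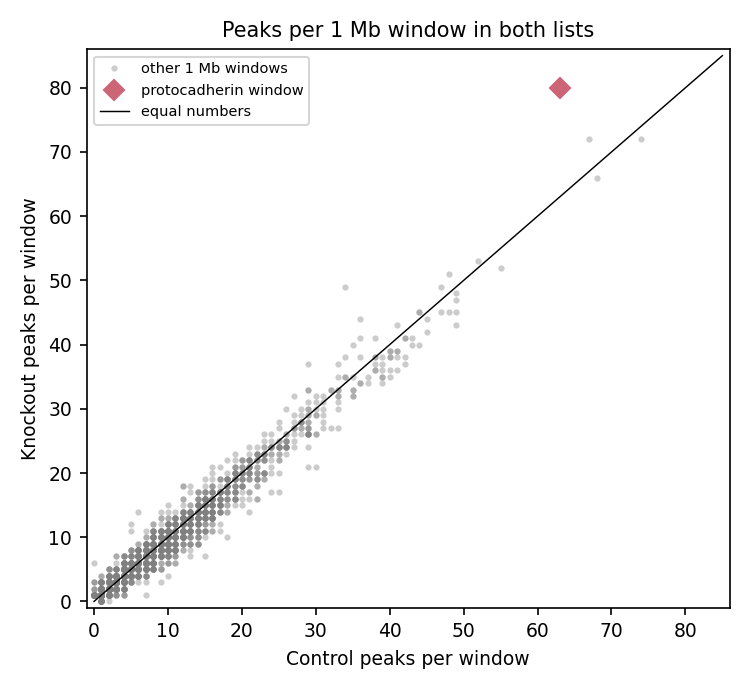
Number of knockout H3K4me3 peaks (y axis) against control peaks (x axis) in each of 2303 windows of 1 Mb, with the protocadherin window as a diamond and equal numbers as a line. The protocadherin window stands highest, at 80 knockout and 63 control peaks.

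The excess was not spread evenly along the window. Members of both lists fell into 10 stretches separated by at least 30 kb without a peak of either list, a distance chosen after the positions were seen. Most of the extra knockout peaks lay in 2 stretches. From 37797569 to 37928453 (131 kb) there were 27 control and 40 knockout peaks, and from 37151692 to 37190964 (39.3 kb) there were 4 control and 11 knockout peaks. The opposite held at the far end. From 37965312 to 38002525 there were 6 control and 3 knockout peaks, and from 38036616 to 38040097 there were 2 and 1. In the remaining 6 stretches the numbers were equal or, from 37571157 to 37693757, differed by 1 (12 control and 13 knockout peaks).

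**Figure D3:**
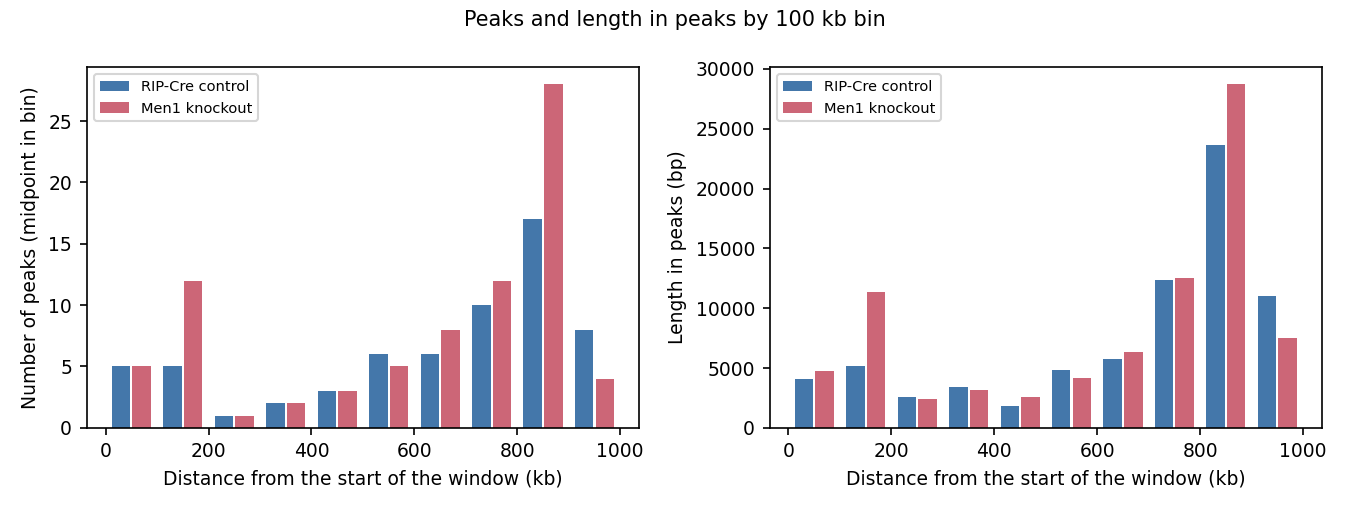
Number of H3K4me3 peaks (left) and length in peaks in bp (right) in 100 kb bins along the protocadherin window, for RIP-Cre control and Men1 knockout islets, 1 library each. The knockout bars are higher from 100 to 200 kb (12 against 5 peaks) and from 800 to 900 kb (28 against 17 peaks), and lower in the last bin (4 against 8 peaks).

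The densest stretch, from 37797569 to 37928453, was a string of closely spaced peaks. The median gap was 3443.5 bp between its control peaks and 1395 bp between its knockout peaks. Control peaks covered 27.5% of its length (35984 bp) and knockout peaks 31.5% (41211 bp). Its control peaks were wider, with a median of 1290 bp against 969.5 bp, so the knockout list covered a greater length with more but narrower peaks. Their median scores were 227 in the control list and 123 in the knockout list.

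In the stretch from 37151692 to 37190964 the knockout list covered 10608 bp against 4430 bp, or 239% of the control length. All 4 control peaks there had a knockout partner, and of the whole control list 12.7% had none. Of the 4 partners 3 were wider. Over all 18299 pairs in which each peak overlapped only the other, the knockout peak was narrower in 73.8%. The narrower partner faced the highest-scoring control peak of the stretch, at 37179559 to 37181160 (score 403), with 1443 bp against 1602 bp. The control peak at 37151795 to 37152563 was 769 bp wide, and its partner 1033 bp. The control peak at 37164688 to 37165801 was 1114 bp wide, with a partner of 1239 bp. The other 7 knockout peaks of the stretch had no control peak, as had 8.71% of the whole knockout list. These 7 peaks scored only 62.2 to 181. Outside the window, 46.7% of knockout peaks scoring under 100 and 22.7% of those from 100 to under 200 had no control peak.

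From 37249221 to 37378166, by contrast, there were few peaks. Single peaks shared by both lists stood at 37249221 to 37250484, at 37302499 to 37304627 and at 37376689 to 37378166 (control borders). The control peak of the first scored 698 and was 1264 bp wide, and its knockout partner scored 544 and was 1176 bp wide. The last scored 1004 with 1478 bp in control islets and 1156 with 1519 bp in knockout islets. The longest bare part was also common to both lists. In control islets the gap ran from 37688963 to 37797568 (108.6 kb) and in knockout islets from 37693758 to 37797658 (103.9 kb). Next in control islets were gaps of 72.1 kb from 37304628 to 37376688 and of 68.1 kb from 37181161 to 37249220. In knockout islets the next were 76.9 kb from 37494294 to 37571156 and 71.9 kb from 37304621 to 37376529.

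The highest-scoring members stood at the same places in both genotypes. The highest score among the members of each list was at the peak from 37302499 to 37304627 in control islets (3121, 2129 bp) and from 37302614 to 37304620 in knockout islets (3133, 2007 bp). Within their own lists, 99.1% of control peaks and 98.9% of knockout peaks scored lower, with those tied at 3100 counted as lower. Only 58.7% of control and 66.6% of knockout peaks scored under 3100. What the tie stands for is not stated, so the place of this peak relative to the tied ones is unknown. The tied score of 3100 was reached by the control peaks at 37802286 to 37804760 (2475 bp), 37965312 to 37967555 (2244 bp) and 37973628 to 37976272 (2645 bp). In knockout islets it was reached by the partners of the first and second of these, at 37802393 to 37804654 (2262 bp) and 37965371 to 37968006 (2636 bp). The knockout peak at 37973654 to 37976096 scored 2338 and was 2443 bp wide. Next in each list came a peak that scored 2615 in control islets (37423861 to 37425792, 1932 bp) and 2020 in knockout islets (37424117 to 37425731, 1615 bp). Thus each of the 5 highest-scoring control peaks overlapped one of the 5 highest-scoring knockout peaks. In control islets the 5 widest members also included the peaks at 37925414 to 37928191 (2778 bp, score 488) and 37914894 to 37917082 (2189 bp, score 628). In knockout islets they included the peak at 37926241 to 37928453 (2213 bp, score 466). The first of these was wider than 82.3% of the control list but outscored 32.7% of it.

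A large part of the peaks in the protocadherin window was found in one genotype alone. An overlap of 1 bp or more with the other list made a peak shared. In the window, 15 of 63 control peaks (23.8%, exact Clopper-Pearson 95% interval 14.0 to 36.2) had no knockout partner, and over the whole control list the share was 12.7%. Without a control partner were 28 of 80 knockout peaks (35.0%, interval 24.7 to 46.5), and over the whole knockout list the share was 8.71%. The knockout count was 15 after merging within 1 kb and 18 when a control peak within 1 kb counted as shared. The intervals treat peaks as independent and cover counting error only. By length, 16.4% of the control and 28.0% of the knockout length in the window was in such peaks, against 5.65% and 3.56% over the whole lists. Both counts were the highest of the 2303 windows, where the next were 13 for control and 15 for knockout peaks, but such counts rise with the number of peaks. As a share, among the 87 windows with 60 or more peaks over both lists, 1 other window was higher for control peaks (32.5%), and the next for knockout peaks had 30.6%. On chromosome 18 the window held 12.0% of the knockout peaks but 28 of the 75 knockout peaks without a partner (37.3%). The share of unshared knockout peaks on this chromosome was 11.3% with the window and 8.02% without it.

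Low scores and one-list peaks went together, so the shares were also set side by side within score classes. For control peaks the share in the window was not above that of the rest of the list at the lowest scores. Under a score of 100 it was 9 of 18 peaks (50.0%, interval 26.0 to 74.0) against 63.8% outside the window, and from 100 to under 200 it was 4 of 18 (22.2%, 6.41 to 47.6) against 40.4%. For knockout peaks the order was the other way. Under 100 it was 14 of 25 (56.0%, 34.9 to 75.6) against 46.7%, and from 100 to under 200 it was 12 of 23 (52.2%, 30.6 to 73.2) against 22.7%. From 200 to under 400 the window was above the rest in both lists, with 2 of 11 control peaks (18.2%, 2.28 to 51.8) against 15.0% and 2 of 20 knockout peaks (10.0%, 1.23 to 31.7) against 5.87%. At a score of 400 or more, 0 of 16 control and 0 of 12 knockout members lacked a partner, which allows shares of up to 20.6% and 26.5% (exact upper bounds), and outside the window the shares were 0.589% and 0.260%, too low to be told from 0 at these numbers. Apart from the knockout class of 100 to under 200, the interval of the window held the value of the rest of the list in each of these 3 lower classes. The intervals treat neighbouring peaks as independent. Of the 12 one-list peaks in that knockout class, those at 37897996, 37181450, 37913471, 37908436 and 37846468 lay 17, 289, 616, 686 and 774 bp from a control peak. The class was not recomputed with peaks within 1 kb counted as shared.

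**Figure D4:**
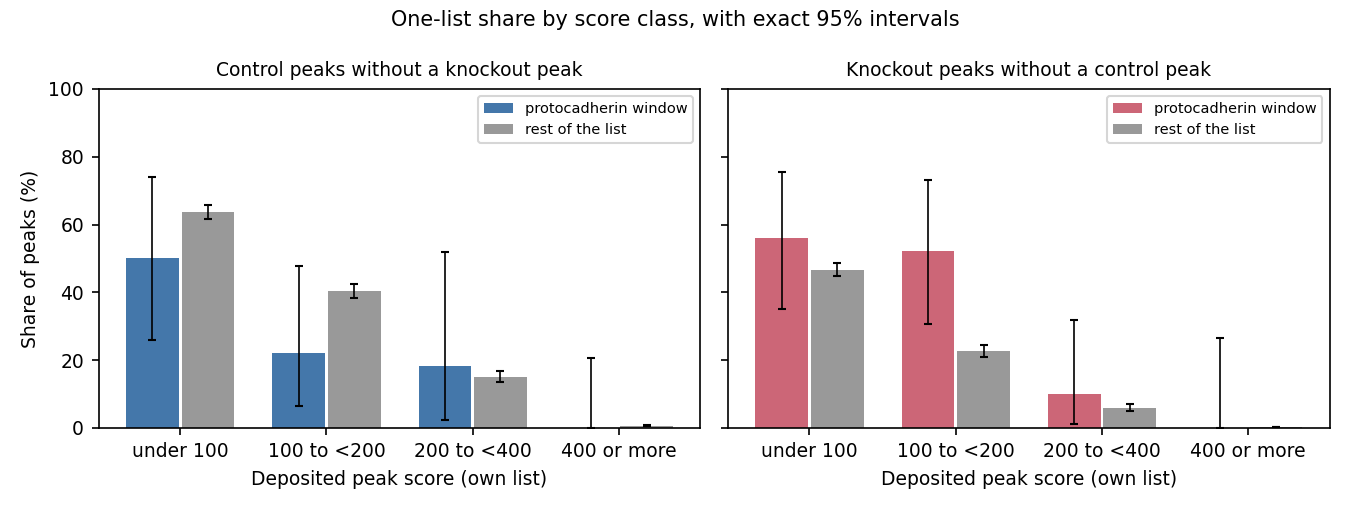
Share (%) of H3K4me3 peaks with no overlapping peak in the other list, by class of deposited score, for control (left) and knockout peaks (right), in the protocadherin window (coloured) and in the rest of each list (grey), with exact 95% intervals. In knockout islets the window stands above the rest at scores of 100 to under 200 (52.2% against 22.7%), while the control bars of the window are below the grey bars under 200.

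Most one-list peaks of the protocadherin window had the other list's nearest peak less than 5 kb away, and many were weak. The distance to the nearest peak of the other list was 149 bp to 26.7 kb for the 15 control peaks (median 3676 bp) and 17 bp to 20.5 kb for the 28 knockout peaks (median 1941.5 bp). Within 5 kb lay 60% of the control and 75% of the knockout peaks, against 22.5% and 22.7% of all one-list peaks of each list, in a window where peaks of any kind stand close. The control-only peaks had a median width of 695 bp and the knockout-only peaks of 793 bp, while the shared members had 1171.5 and 1018 bp. Their median scores were 77.8 and 95.1, against 237 and 219 for shared members. A score under 100 was held by 9 of the 15 control-only peaks (60%) and 14 of the 28 knockout-only peaks (50%), against 51.1% and 62.5% of all one-list peaks of each list. Both under 100 and within 5 kb were 7 and 11 of them.

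At the near end of the window each list had peaks of its own. The control list alone had peaks at 37058285 to 37058933 (649 bp, score 60.8) and at 37061512 to 37062838 (1327 bp, score 122), the latter 26.7 kb from any knockout peak. The knockout list alone had peaks at 37089571 to 37090519 (949 bp, score 371) and at 37105617 to 37106284 (668 bp, score 104). The peak at 37089571 had the highest score of all knockout-only members, and 31.0% of the knockout list scored lower. No control peak lay within 8.20 kb of it.

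In the stretch that followed, all one-list peaks were of the knockout list. The widest stood at 37170054 to 37171260 (1207 bp, score 181). The next by score was at 37181450 to 37182339 (890 bp, score 106), 289 bp from a control peak. At 37176878 to 37177593 a peak of 716 bp scored 89.9. Scores from 62.2 to 74.4, close to the lowest of the list, were found at 37166839 to 37167692 (854 bp), 37185461 to 37186341 (881 bp), 37189533 to 37190170 (638 bp) and 37190277 to 37190964 (688 bp). The last 3 of these stood beyond the last control peak of the stretch, the furthest beginning 9.12 kb from it.

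In the middle of the window both lists had scattered one-list peaks. From 37423861 to 37515370 the control list alone had peaks at 37450764 to 37451490 (727 bp, score 73.1) and 37514747 to 37515370 (624 bp, score 107). The knockout list alone had peaks there at 37467000 to 37467684 (685 bp, score 70.3) and 37493356 to 37494293 (938 bp, score 206). The last of each list were 20.5 kb apart, so the lists differed in where this stretch ended.

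From 37571157 to 37693757 the one-list peaks numbered 4 in control and 5 in knockout islets, and all scored under 200. Those of the control list stood at 37586992 to 37587822 (831 bp, score 66.6), 37595047 to 37595721 (675 bp, score 103), 37648971 to 37649575 (605 bp, score 77.8) and 37688104 to 37688962 (859 bp, score 98.0). Those of the knockout list stood at 37571157 to 37571853 (697 bp, score 101), 37644698 to 37645294 (597 bp, score 72.8), 37665265 to 37665725 (461 bp, score 67.4), 37680653 to 37681708 (1056 bp, score 100.3) and 37692947 to 37693757 (811 bp, score 158). The control peak at 37648971 and the knockout peak at 37644698 were 3676 bp apart with no other peak between them, as were the last of each list, at 3984 bp.

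In the densest stretch, from 37797569 to 37928453, there were 12 knockout-only and 4 control-only peaks. The knockout-only peaks with the highest scores stood at 37922393 to 37923495 (1103 bp, score 158), 37846468 to 37848023 (1556 bp, score 155), 37920886 to 37921970 (1085 bp, score 120) and 37897996 to 37899100 (1105 bp, score 117). The peak at 37897996 began 17 bp beyond a control peak. Peaks at 37908436 to 37909470 (1035 bp, score 109) and 37913471 to 37914277 (807 bp, score 106) lay 686 and 616 bp from control peaks. The remaining 6 scored under 100 and were 535 to 779 bp wide, at 37820014 to 37820548, 37822846 to 37823427, 37855539 to 37856317, 37858240 to 37858820, 37878230 to 37878928 and 37887361 to 37888130, with scores of 71.1, 66.5, 78.6, 82.3, 84.6 and 63.7. All 12 lay within 3.10 kb of a control peak.

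The control-only peaks of the same stretch were also small. They stood at 37829898 to 37830592 (695 bp, score 63.7), 37868720 to 37869345 (626 bp, score 71.7), 37869502 to 37870139 (638 bp, score 68.8) and 37880537 to 37881515 (979 bp, score 123). At the far end of the window, by contrast, there were 3 control-only and 0 knockout-only peaks. The control list alone had peaks at 38001419 to 38002525 (1107 bp, score 371), 37981304 to 37982572 (1269 bp, score 249) and 38036616 to 38037288 (673 bp, score 71.1). The peak at 38001419 had the highest score of all control-only members and was 15.7 kb from any knockout peak.

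Shared peaks were set against each other in width over 37 pairs in which each peak overlapped only the other. On the log2 scale the median ratio of knockout to control width was -0.10 (95% interval -0.20 to 0.03, SD 0.47), and over all 18299 pairs of the lists it was -0.11 (SD 0.29). The interval describes these 37 pairs of neighbouring peaks from 1 library per genotype. It holds both 0 and the value over all pairs, so it sets the window apart from neither. In 22 pairs (59.5%) the knockout peak was the narrower and in 15 the wider, and over all pairs it was narrower in 73.8%. The 8 pairs with both scores at 400 or more had a median of -0.12 (-0.37 to 0.04), and the 13547 such pairs outside the window had -0.10. The 24 pairs with both scores under 400 had a median of 0.02 (-0.20 to 0.31, SD 0.53), with 14 of 24 wider, while the 3341 such pairs outside the window had -0.20 (-0.21 to -0.18, SD 0.43). The median of the 24 was thus above that of such pairs elsewhere, but its interval reached it. When peaks of a list within 1 kb of each other were merged, the median over all pairs of the window turned to 0.0741.

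The knockout peak was at least 1.5 times narrower in 4 of 37 pairs (10.8%), against 6.11% of all pairs, and at least 1.5 times wider in 2 (5.41%), against 0.945%. All pairs are mostly high-scoring. With both scores under 400 the order for narrower pairs was the opposite, 2 of 24 (8.33%) in the window against 17.9% outside it, while wider pairs made up 8.33% against 2.96%. All 4 that were narrower lay in the densest stretch. At 37828392 to 37829551 a control peak of 1160 bp (score 360) faced a knockout peak of 621 bp (score 69.9), a log2 ratio of -0.90. At 37833562 to 37834955 the widths were 1394 bp (score 265) and 795 bp (score 84.6), at -0.81. At 37814832 to 37816210 they were 1379 bp (score 801) and 810 bp (score 332), at -0.77. At 37896266 to 37897978 they were 1713 bp (score 508) and 1047 bp (score 209), at -0.71, and this is the control peak beside the knockout-only peak that began 17 bp further on. The wider pairs lay elsewhere. At 37098721 to 37099264 a control peak of 544 bp (score 135) faced a knockout peak of 1543 bp (score 355), at 1.504. At 37454484 to 37454970 the widths were 487 bp (score 72.1) and 968 bp (score 137), at 0.99.

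**Figure D5:**
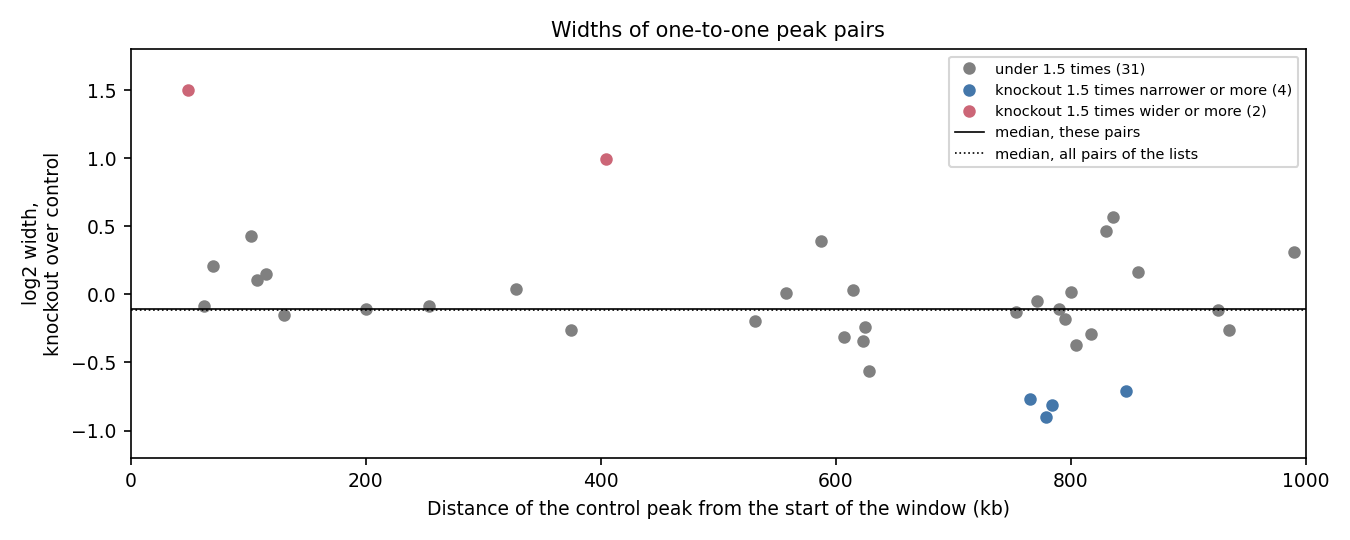
Log2 ratio of knockout over control width for the 37 one-to-one pairs of H3K4me3 peaks, against the distance in kb of the control peak from the start of the window, with the median of these pairs (solid line, -0.10) and of all pairs of the lists (dotted line, -0.11). The 4 pairs that are at least 1.5 times narrower lie between 700 and 900 kb, and the 2 that are at least 1.5 times wider lie under 500 kb.

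Several control peaks overlapped 2 knockout peaks each. An overlap of 1 bp was enough, so such a case need not be a control peak split in 2. In the window 7 of 63 control peaks (11.1%) overlapped 2 knockout peaks, against 2.58% of the whole control list that overlapped 2 or more, and all 7 were in the densest stretch. In the other direction 3 of 80 knockout peaks (3.75%) overlapped 2 control peaks, against 0.728% of the whole knockout list that overlapped 2 or more. The control peak at 37901408 to 37903548 (2141 bp, score 340) met knockout peaks of 553 and 991 bp. The control peak at 37874236 to 37876320 (2085 bp, score 533) met peaks of 1287 and 575 bp, and that at 37890287 to 37891598 (1312 bp, score 148) met peaks of 467 and 845 bp. In these 3 cases the knockout peaks together were not wider than the control peak.

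For the other 4 the knockout peaks together were wider, with their bases outside the control peak counted. The widest control member, at 37925414 to 37928191 (2778 bp), met knockout peaks of 885 and 2213 bp. The control peak at 37797569 to 37798858 (1290 bp, score 169) met peaks of 1008 and 791 bp. The second of these began at 37798829, so most of it lay beyond the control peak. At 37914894 to 37917082 the 2189 bp control peak met peaks of 1961 and 1303 bp, and at 37911148 to 37912328 a control peak of 1181 bp (score 227) met peaks of 770 and 1180 bp. At these last positions the borders of the lists interleaved, since the knockout peaks at 37917041 to 37918343 (1303 bp, score 213) and at 37910866 to 37911635 (770 bp, score 110) each overlapped 2 control peaks. The third such knockout peak was the high-scoring one at 37965371 to 37968006 (2636 bp), which met control peaks of 2244 and 586 bp.

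Counted by base, 52264 bp of the window were in peaks of both lists. This made up 69.9% of what control peaks covered and 62.6% of what knockout peaks covered, against 83.5% and 92.7% over the whole lists. That comparison was not matched by score. Scores under 400 were held by 74.6% of control and 85% of knockout members, but by 30.1% and 31.8% of the whole lists. Peaks of either list covered 106 kb, or 10.6% of the window.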

How the data were processed

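Peak lists of H3K4me3 ChIP-seq from 2-month islets were used, 1 library for RIP-Cre control and 1 for Men1 knockout mice. Alignment with Bowtie, peak calling with MACS 1.4.2 and the build mm9 are named in the submitters' processing notes, while filters and the use of input are not given there. The authors' deposited lists give the position and the score of each peak, without header or counts, so depth is unknown. Peak names are those of MACS, but the scale of the deposited score is not stated. Lists were tied to samples through the genotype, age and mark their names give, beside an unexplained "2nd", and 0 per-sample columns were left unused.

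Peaks overlapping the window by 1 bp were members, positions are 1-based, and all comparisons ran on the whole lists (Python 3.11.15, numpy 2.4.6, scipy 1.17.1). Medians carry 95% order-statistic intervals and shares exact 95% intervals. There is no replicate, so no p-value was computed. Peaks named in full were all one-list peaks, pairs past 1.5 times in width, peaks meeting several of the other list, the 5 widest and 5 highest-scoring of each list and the 3 largest gaps. The single shared peaks, the examples from 37151692 to 37190964 and the score classes were chosen after their values were seen. The window and all lists and rules were chosen with earlier results of these data known. Functions were tested on simulated data. No genes were assigned, so the list of cluster regulators was not analysed, and no sequence is printed.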

Additional observations from a re-analysis of the deposited data

How the results depend on the processing

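Of 76 values recomputed, 49 stayed inside their interval or, for counts and lengths, within 1.5 times, 26 moved and 1 changed sign. Shifting the window's ends by 50 kb moved none of them. The median log2 width ratio turned to 0.0741 when peaks within 1 kb of each other were merged. That merging gave 15 knockout-only peaks, a knockout gap median of 5647 bp, a knockout median width of 1191.5 bp and a knockout median score of 206, and left 55 control and 58 knockout members. Counting a peak within 1 kb as shared left 18 knockout-only peaks. With peaks scoring under 100 removed from both lists there were 18 knockout-only peaks, gap medians of 7560 bp (control) and 6657.5 bp (knockout), median widths of 1269 and 1070 bp and median scores of 280 and 213, as follows from leaving out low scores. The top 50% of each list by score left 5 control and 5 knockout members with 0 one-list peaks in either list (also 0 and 0 against the whole other list), lengths of 11425 and 10963 bp, gap medians of 139892 and 140106 bp, median widths of 2244 and 2262 bp and median scores of 3100 and 3100. So the excess of knockout peaks lay wholly in peaks under the median score and was 3 peaks after merging. The merged members covered 77630 bp (control) and 93641 bp (knockout), with the joined gaps included. Apart from the top 50%, the other settings kept a larger excess in number. There were 57 control and 78 knockout members with the window shortened, and 65 and 83 with it lengthened. Scores of at least 100 gave 45 and 55. Equal numbers of peaks from the top by score gave 59 and 80. No paired analysis was possible because there was a single library of each genotype, and so no library could be left out. Without depths, absent peaks cannot be told from undetected ones.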
